A study of Mus musculus with 10 samples.

Results

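Toll-like receptors and the proteins that help them see microbial products were followed in 10 clonal lines of 3T3-L1, a mouse embryonic fibroblast line that can be turned into fat cells. The set held Tlr1 to Tlr6, the co-receptor genes Cd14 and Ly96, and the adaptor gene Myd88. Of these 9 named genes, 8 had a probe set annotated to that symbol alone, out of 19937 genes with such a probe set in the series. Tlr5 was not analysed here. Each of the 8 genes had 1 probe set on the array, so the choice of the brightest probe set played no part. All 8 passed the filter on dim signals, as did 16339 genes in all.

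The 5 High lines (clones 3F4, 4D2, 4E3, 5C4 and 5D4, replicates 1 to 5) had stored much triglyceride after insulin, dexamethasone and IBMX, and the 5 Low lines (clones 1E7, 2D7, 2F1, 4D11 and 4H4, replicates 1 to 5) had stored little. All arrays came from untreated, proliferating cells of each clone, grown in DMEM with serum and kept below confluence, before any differentiation cocktail. Each line grew from a single colony and gave 1 array, so every value below is that of 1 clone and the number of lines limits the precision. Replicate numbers were given here to tell the clones apart and are not in the labels. Values are log2 intensities, and differences are High minus Low on that scale.

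Toll-like receptors are membrane proteins whose outer leucine-rich repeats bind microbial molecules and whose inner TIR domain recruits adaptor proteins. TLR2 works as a pair with TLR1 or TLR6 and binds bacterial lipopeptides. TLR4 binds lipopolysaccharide together with MD-2, the product of Ly96, and CD14 hands lipids to both receptors. TLR3 sits in endosomes, binds double-stranded RNA and signals through TRIF, the product of Ticam1. MyD88 serves the other receptors of the set, and TRIF is not confined to TLR3. These routes meet at NF-kB and interferon regulatory factors, and preadipocytes are known to answer such ligands with chemokines.

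Tlr2 heads the set because it was chosen by its High minus Low difference in these same arrays, so its values are a description and carry no test. The other genes came in as its family, partners and adaptor. Tlr2 (Entrez gene 24088, probe set 10498992) measured 9.95, 9.59, 9.83, 9.74 and 9.77 in High lines, against 9.20, 9.24, 9.32, 9.26 and 9.57 in Low lines. Every High line exceeded every Low line, with the narrowest gap between High replicate 2 and Low replicate 5. The means were 9.78 ± 0.13 in High and 9.32 ± 0.15 in Low lines (SD, n = 5 each), a difference of 0.46 or 1.37-fold. Values of the classes did not overlap for 1 of the 8 genes, which is the gene picked for that separation, and for 1.57% of all tested genes. High values exceeded all Low values for 0.526% of them. Clone names open with a digit, and with that digit as a block the Tlr2 difference was 0.29. That value, like every class difference with this block, rests on High replicates 2 and 3 and Low replicates 4 and 5. No other digit occurs in both classes, and the labels do not say what the digit stands for.

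The promoter of Tlr2 is shown with the letters that match the binding consensus of NF-kB, the factor that TLR2 signalling activates. The sequence holds the 250 bases before a RefSeq transcript start on the minus strand at chr3:83841609-83841858 (GRCm38.p6), read 5′ to 3′, with consensus letters in capitals.
Tlr2: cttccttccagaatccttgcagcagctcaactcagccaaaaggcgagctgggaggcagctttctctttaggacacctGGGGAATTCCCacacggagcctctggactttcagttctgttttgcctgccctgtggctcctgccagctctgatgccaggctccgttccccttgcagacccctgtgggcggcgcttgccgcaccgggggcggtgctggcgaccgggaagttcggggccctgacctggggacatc
A pair of overlapping matches began 173 and 172 bases before the start. On both strands, 7.25% of 32851 RefSeq promoter windows of this length held a match. Windows were at hand for 5 of the 8 genes, 7 windows in all, and not for Tlr4, Cd14 and Ly96. Among the others, Tlr3 held 1 match, and Tlr1, Tlr6 and Myd88 held 0.

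**Figure D1:**
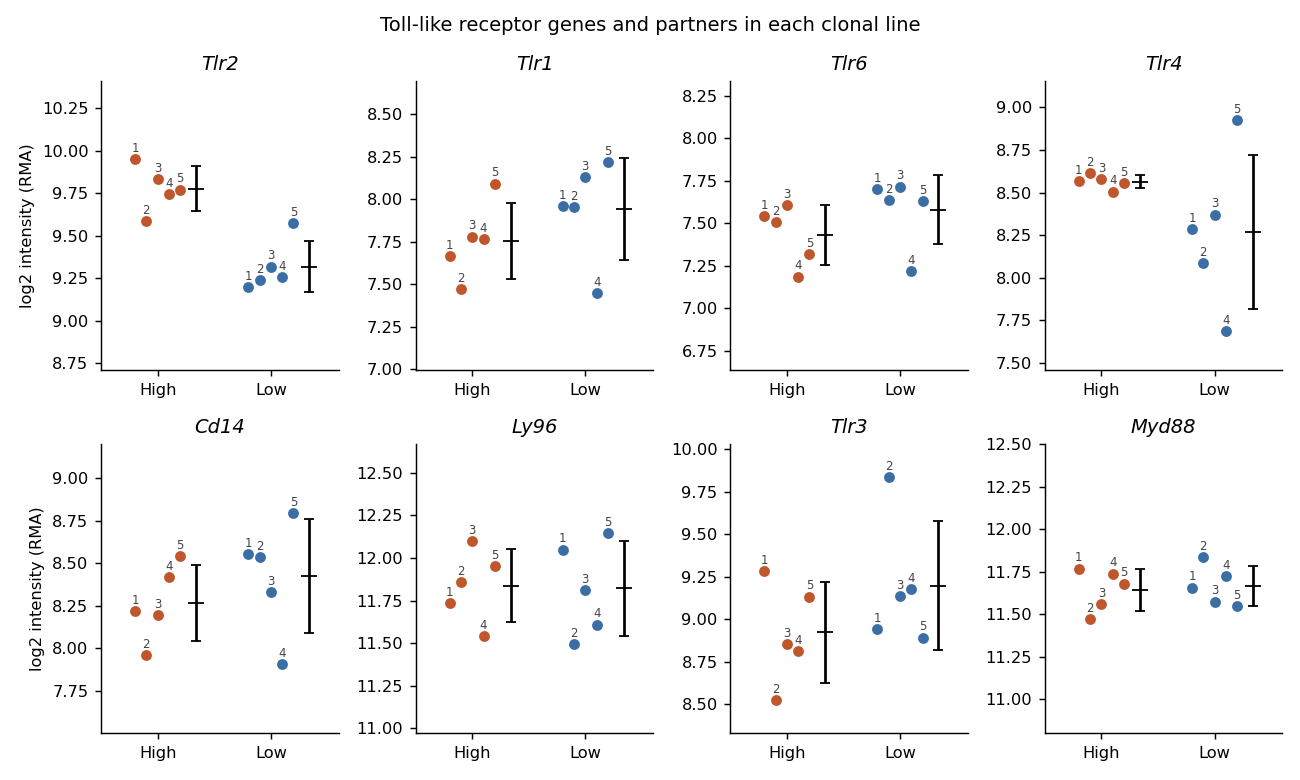
Log2 intensity of each of the 8 genes in 5 High lines (left) and 5 Low lines (right), with replicate numbers beside the points. Black bars give the mean and SD of each class. Only the Tlr2 values of the classes are separate, and the Tlr4 values of High lines sit within 8.51 to 8.61 while those of Low lines run from 7.69 to 8.93.

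The genes of both TLR2 partners had overlapping classes, with means slightly lower in High lines and differences within the spread between lines. Tlr1, whose product pairs with TLR2 on triacylated lipopeptides, measured 7.67, 7.47, 7.78, 7.77 and 8.09 in High lines, against 7.96, 7.95, 8.13, 7.45 and 8.22 in Low lines. Low replicate 4 was the lowest line and Low replicate 5 the highest, so the classes overlapped across most of their range. The difference was -0.19 (95% confidence interval -0.50 to 0.13, limma adjusted p = 0.784), and it was -0.31 without Low replicate 4, -0.12 without High replicate 2 and -0.12 without Low replicate 5. Tlr6, the partner for diacylated lipopeptides and a close relative of Tlr1 on the same chromosome (5), measured 7.54, 7.51, 7.61, 7.19 and 7.32 in High lines, against 7.70, 7.64, 7.72, 7.22 and 7.63 in Low lines. Of the Low lines, 4 lay above every High line and the remaining one, Low replicate 4, lay near the bottom of the High range. Its difference was -0.15 (95% confidence interval -0.39 to 0.09, limma adjusted p = 0.783), and it was 0.13 with the clone digit as a block. Cross-hybridisation between these related genes was not tested.

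Tlr4, the lipopolysaccharide receptor gene, was nearly level across High lines and scattered across Low lines. It measured 8.57, 8.61, 8.58, 8.51 and 8.56 in High lines, against 8.28, 8.08, 8.37, 7.69 and 8.93 in Low lines. All High lines lay above 4 of the 5 Low lines and below Low replicate 5. The means were 8.56 ± 0.04 in High and 8.27 ± 0.45 in Low lines (SD, n = 5 each), with a difference of 0.29 (95% confidence interval -0.08 to 0.67, limma adjusted p = 0.717). The difference was 0.46 without Low replicate 5 and 0.15 without Low replicate 4, and both stayed short of the threshold. The SD of Low lines was 11.7 times that of High lines, and of 16339 tested genes this 1 gene had a ratio that large, where the median ratio was 0.859. This contrast in spread was singled out after the values were seen and has no test. Without Low replicate 5 the ratio was 7.87, which 15 genes reached, and without Low replicate 4 it was 9.30, which 5 genes reached. Both classes are fitted with 1 spread per gene in limma, which these Tlr4 values depart from.

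The co-receptors of TLR4 gave overlapping classes. Cd14, which encodes a lipid-binding co-receptor, measured 8.22, 7.96, 8.20, 8.42 and 8.54 in High lines, against 8.55, 8.54, 8.33, 7.91 and 8.80 in Low lines. Low replicates 4 and 5 were again the lowest and the highest lines. The Cd14 difference was -0.16 (95% confidence interval -0.49 to 0.18, limma adjusted p = 0.816). It was -0.28 with the clone digit as a block, -0.29 without Low replicate 4, -0.08 without High replicate 2 and -0.07 without Low replicate 5. Ly96, whose product MD-2 holds the lipid part of lipopolysaccharide, measured 11.73, 11.86, 12.10, 11.54 and 11.95 in High lines, against 12.05, 11.50, 11.81, 11.61 and 12.15 in Low lines. Its difference was 0.01 (95% confidence interval -0.28 to 0.31, limma adjusted p = 0.981), and the sign turned after each array was centred on its median. The spread between lines of either class was far larger than that difference.

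Tlr3 and Myd88 belong to separate branches of the pathway, and neither separated the classes. Tlr3 measured 9.29, 8.53, 8.86, 8.81 and 9.13 in High lines, against 8.94, 9.84, 9.14, 9.18 and 8.89 in Low lines. Low replicate 2 was the highest line, and High replicate 2 the lowest. The difference was -0.27 (95% confidence interval -0.67 to 0.12, limma adjusted p = 0.76), and it was -0.11 without Low replicate 2 and -0.18 without High replicate 2. Tlr3 lies on chromosome 8, where the 50 nearest tested genes had a median difference of -0.11. With their median subtracted in each array, Tlr3 differed by -0.21. For Tlr2, on chromosome 3, the same neighbours had a median of 0.01 and the difference was 0.46 with or without them. Myd88, the shared adaptor gene, measured 11.77, 11.47, 11.56, 11.74 and 11.68 in High lines, against 11.66, 11.83, 11.57, 11.73 and 11.55 in Low lines. The classes overlapped apart from High replicate 2, below every Low line, and Low replicate 2, above every High line. The difference was -0.03 (95% confidence interval -0.20 to 0.15, limma adjusted p = 0.936). The sign of that small difference turned without High replicate 2 and without Low replicate 2.

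**Figure D2:**
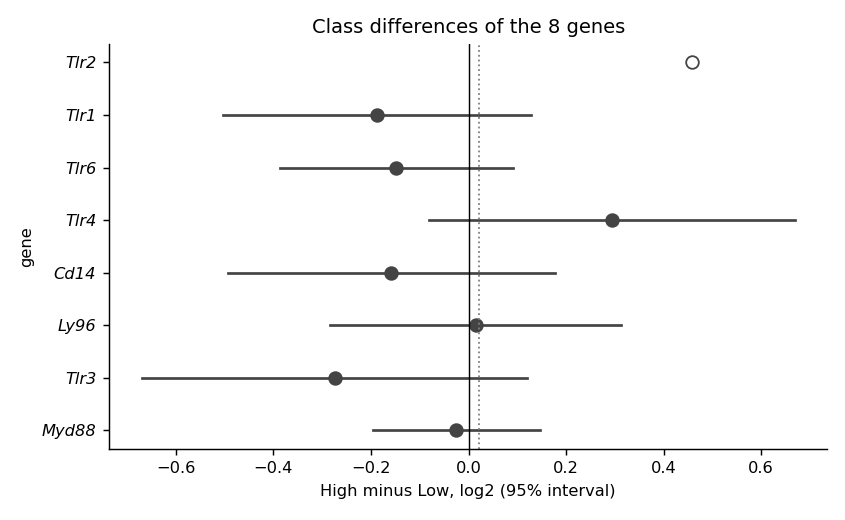
High minus Low difference on the log2 scale (horizontal axis) of the 8 genes, with 95% confidence intervals from the limma fit for all but Tlr2 and a dotted line at the median of all tested genes, 0.02. The open circle marks Tlr2, which was picked for its difference and is shown without an interval. The intervals of the other 7 genes include 0.

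Over all tested genes 1 passed an adjusted p under 0.05 in limma, 0.00612% of 16339, and of the 7 Toll-like receptor genes and partners other than Tlr2 the count was 0. The count over all genes was 0 with the clone digit as a block, 3 with array weights and 19 without High replicate 5. It was 2 without Low replicate 3, without Low replicate 5, with either centring of the arrays and with an intensity trend in the variance. At an unadjusted p under 0.05 the count among these 7 was also 0, against 7.95% of all tested genes. The 1299 genes at that level were 517 higher (3.16%) and 782 lower (4.79%) in High lines. This split was 298 higher and 1188 lower after each array was centred on the median of all its probe sets. It was 640 higher and 510 lower after centring on the median of the tested genes, a setting added after the data were seen. Across all tested genes the differences had a median of 0.02, which centring on all probe sets shifted by -0.03.

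Line by line, the receptor genes did not order the clones in one way. Low replicate 5 had the highest value of 4 genes, Tlr1, Tlr4, Cd14 and Ly96, and it was also the Low line with the most Tlr2. Low replicate 4 had the lowest value of 3 genes, Tlr1, Tlr4 and Cd14, and its Tlr6 value was nearly the lowest. Low replicate 2 was highest for Tlr3 and Myd88 and lowest for Ly96, and High replicate 2 was lowest for Tlr3 and Myd88. High replicate 5 lay above the mean of the 10 lines for 7 of the 8 genes, all but Tlr6. The array medians ran from 7.76 to 7.84 in High and from 7.74 to 7.78 in Low lines, with Low replicate 5 at the lowest. Centring on these medians moved the differences by -0.03, and their part in the line patterns was not tested further.

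**Figure D3:**
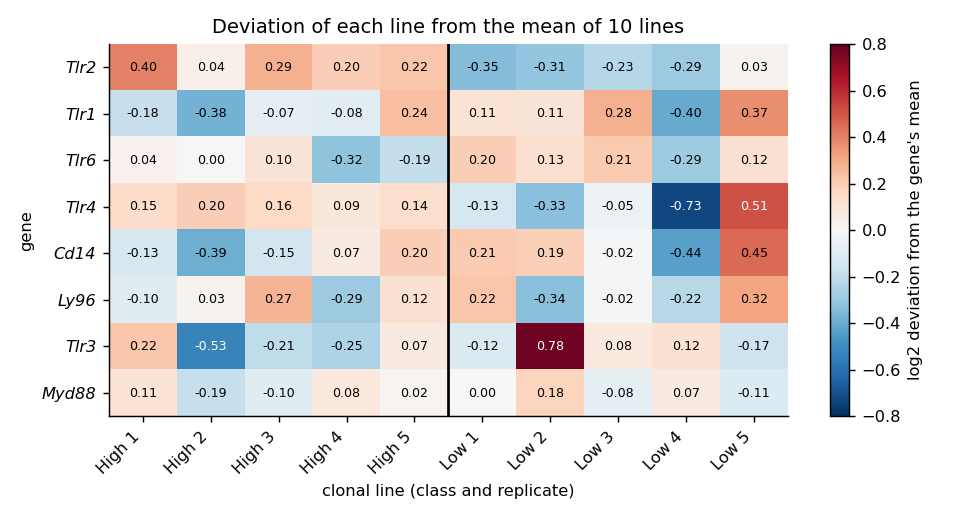
Deviation of each line from the mean of the 10 lines on the log2 scale, by colour and number, for the 8 genes (rows) and 10 lines (columns, High lines left of the black line). Tlr2 is positive in all High lines and negative in 4 of 5 Low lines, while Low replicates 4 and 5 lie at opposite ends for Tlr1, Tlr4 and Cd14.

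Pairs of the 8 genes were compared across the 10 lines, 28 pairs in all, to see which receptors and partners varied together. The adjustment covers all 28, and for pairs with Tlr2 the r over all lines is a description, with no p given. Tlr1 and Cd14 gave the 1 pair past the adjusted threshold. Their Pearson r was 0.89 (permutation p = 0.0008, adjusted p = 0.0224 over 28 pairs) and their Spearman rho was 0.82 (permutation p = 0.00608, adjusted p = 0.139). Without High replicate 2 and Low replicate 4, the lines farthest from the Tlr1 median, r was 0.73 (exact permutation p = 0.0396, adjusted p = 0.421). The adjusted call was thus not kept without those lines. Dropping the farthest lines narrows the range and leaves 8 lines, so this loss cannot tell what the call rests on. For deviations from the class means r was 0.88 (exact permutation p within classes = 0.0041, adjusted p = 0.104).

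The pair Tlr3 and Myd88 came next. Its r was 0.78 (permutation p = 0.00443, adjusted p = 0.062) and its rho was 0.70 (permutation p = 0.0295, adjusted p = 0.242). Low replicate 2 held the highest and High replicate 2 the lowest value of both genes, and without them r was 0.44 (exact permutation p = 0.252, adjusted p = 0.747). Dropping these extremes also narrows the range of both genes. For deviations from the class means, with all lines kept, r was 0.81 (exact permutation p within classes = 0.00743, adjusted p = 0.104). Myd88 and Ly96 ran in opposite directions, with r at -0.71 (permutation p = 0.0244, adjusted p = 0.228), rho at -0.78 (permutation p = 0.00991, adjusted p = 0.139) and r at -0.77 without the same 2 lines (exact permutation p = 0.0377, adjusted p = 0.421). Tlr2 and Tlr4 had an r of 0.65 and a rho of 0.64, and without High replicate 1 and Low replicate 1 their r was 0.70. For deviations from the class means, which leave out the difference that chose Tlr2, it was 0.58 (exact permutation p within classes = 0.16, adjusted p = 0.459). No other pair without Tlr2 had an unadjusted permutation p under 0.05 for r.

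**Figure D4:**
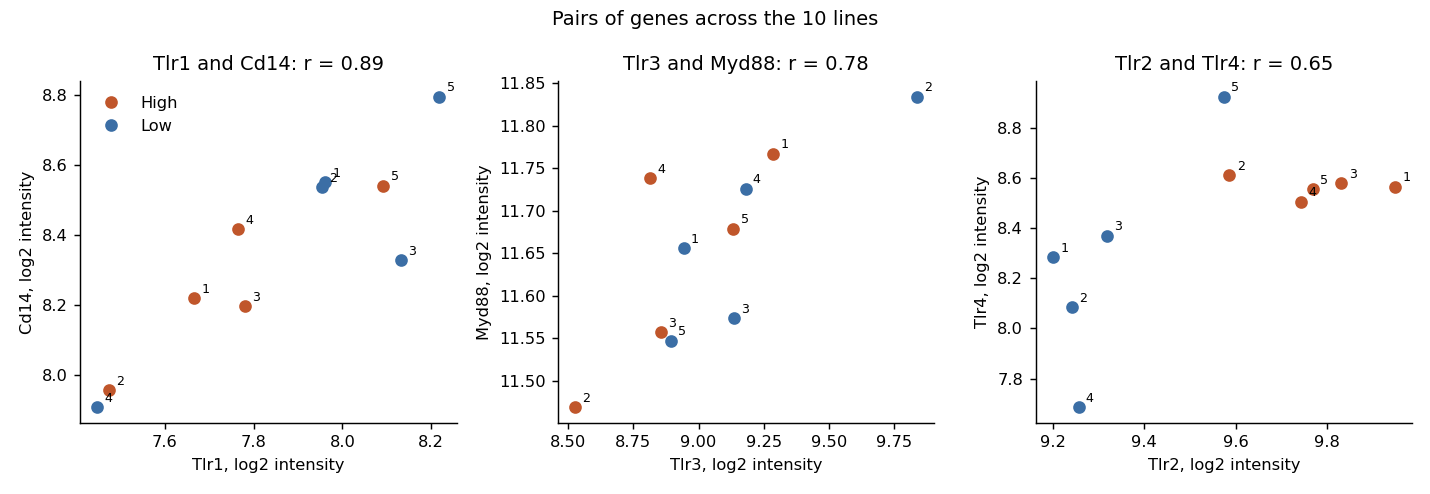
Log2 intensities of 3 pairs of genes across the 10 lines, High lines in rust red and Low lines in blue, with replicate numbers beside the points. Tlr1 and Cd14 have an r of 0.89, Tlr3 and Myd88 an r of 0.78 with High replicate 2 and Low replicate 2 at the ends, and Tlr2 and Tlr4 have an r of 0.65.

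The promoters of Tlr3 and Myd88 are shown because this pair had the second highest r, which did not pass the adjusted threshold, and a different motif is marked in each. Capitals in the Tlr3 sequence (minus strand, chr8:45410381-45410630) mark the NF-kB consensus, 211 bases before the transcript start. Capitals in the Myd88 sequence (minus strand, chr9:119340019-119340268) mark a match to the core of the interferon response element, GAAA and again GAAA with 2 bases of any kind between them, 40 bases before the start.
Tlr3: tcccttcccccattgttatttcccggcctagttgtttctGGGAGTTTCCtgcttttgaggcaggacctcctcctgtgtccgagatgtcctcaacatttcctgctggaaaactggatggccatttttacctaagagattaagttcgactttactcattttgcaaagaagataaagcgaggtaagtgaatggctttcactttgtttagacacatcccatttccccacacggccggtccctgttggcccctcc
Myd88: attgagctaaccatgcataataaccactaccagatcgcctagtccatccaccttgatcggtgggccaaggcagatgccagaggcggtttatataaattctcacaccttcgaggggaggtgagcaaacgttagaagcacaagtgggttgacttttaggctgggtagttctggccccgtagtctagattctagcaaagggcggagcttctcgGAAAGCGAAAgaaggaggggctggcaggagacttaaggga
Both are RefSeq windows of GRCm38.p6 that end at the base before a transcript start, read 5′ to 3′. This core, searched on both strands, was in 2.98% of the 32851 windows. One of the windows of Tlr6 held a pair of overlapping matches to it on the opposite strand, and the windows of Tlr1, Tlr2 and Tlr3 held 0. These matches describe letters and not bound sites.

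Genes whose pattern over the 10 lines was most like that of Tlr2 were taken from all tested genes by Pearson r, leaving out predicted genes, and no p is given for values chosen as extremes. Angptl4, which encodes an inhibitor of lipoprotein lipase, came first with an r of 0.94 (rho 0.84). It was followed by Ptn, the growth factor gene pleiotrophin, at 0.91, Gnptg at 0.90, the growth factor gene Pdgfc at 0.90 and Lhfpl2 at 0.90. Both Tlr2 and these genes had higher means in High lines, so part of each r is the class difference. For deviations from the class means, r with Tlr2 was 0.78 for Angptl4, 0.68 for Ptn, 0.69 for Gnptg, 0.67 for Pdgfc and 0.55 for Lhfpl2. The opposite pattern was led by Saal1 at -0.96 and Tmed10, a cargo receptor gene of the early secretory pathway, at -0.95. The mitochondrial carrier gene Slc25a30 followed at -0.93, with Cpne3 at -0.93 and Mettl8 at -0.92. These genes had lower means in High lines, so part of each r is again the class difference. Their r with Tlr2 for deviations from the class means was -0.88, -0.76, -0.78, -0.85 and -0.77, in that order. By deviations from the class means alone, the most similar genes were Catsper2 at 0.95, Cby1 at 0.92 and Prepl at 0.92, and across all lines their r with Tlr2 was 0.66, 0.10 and -0.16.

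Receptor genes outside the set gave no call. Of 12 receptor genes listed for mouse, 7 were tested, 3 (Tlr7, Tlr8 and Tlr13) lay below the filter and 2 were not analysed here. Tlr9, a receptor for bacterial DNA, differed by 0.05, and Tlr12, a mouse receptor for a parasite protein, by 0.19 (limma adjusted p = 0.886 and 0.708). Of the 10 co-receptors and chaperones, 8 were tested and 0 had an unadjusted p under 0.05, beside 7.95% of all tested genes. The 2 below the filter include Cd36, which was not tested and exceeded the 25th percentile in 2 of the 10 arrays. It measured 6.78, 5.78, 7.65, 6.07 and 5.39 in High lines and ran from 5.11 to 5.37 in Low lines, without overlap, a difference of 1.12. High replicates 1 and 3 were the 2 arrays above the percentile. Classes did not overlap for 1.57% of all tested genes. Unc93b1, which carries endosomal receptors to their compartment, measured 9.01, 8.62, 9.24, 8.79 and 9.28 in High lines, against 8.47, 8.71, 9.08, 8.15 and 9.11 in Low lines. Low replicate 4 was again the lowest line, and the difference was 0.28 (limma adjusted p = 0.76).

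Adaptors, kinases and ubiquitin ligases gave medians close to that of all genes. Among 6 TIR adaptors, 3 differences were positive and 3 negative, with a median of 0.03. An unadjusted p under 0.05 was reached by 0 of them, beside 7.95% of all tested genes. The adaptor median was -0.07 with the clone digit as a block, and -0.02 without High replicate 4. Tirap, which brings MyD88 to TLR2 and TLR4, differed by -0.18 and Ticam1, an adaptor gene used by TLR3, by 0.21 (limma adjusted p = 0.703 and 0.707). Among 19 kinases and ubiquitin ligases tested, 9 were positive and 10 negative, with a median of -0.01. An unadjusted p under 0.05 was reached by 2 of them in limma, 1 in each direction, and 0 passed the adjustment. Of all tested genes, 3.16% were higher and 4.79% lower in High lines at that level. Traf6, the ubiquitin ligase gene downstream of MyD88, averaged 10.27 ± 0.08 in High and 10.44 ± 0.06 in Low lines (SD, n = 5 each), a difference of -0.16 (limma adjusted p = 0.517). Peli2, a ubiquitin ligase gene acting on the IRAK kinases, averaged 9.47 ± 0.09 in High and 9.26 ± 0.09 in Low lines (SD, n = 5 each), a difference of 0.21 (limma adjusted p = 0.428). The kinase gene Irak1 differed by 0.08, Map3k7, which encodes TAK1, by -0.06, and Ikbkb, a kinase gene of the inhibitor of NF-kB, by -0.09.

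The transcription factor genes at the end of the pathway also overlapped. Of 9 tested, 5 were positive and 4 negative, and their median was 0.09. None had an unadjusted p under 0.05, beside 7.95% of all tested genes. The median was -0.02 without High replicate 5 and -0.0003 without Low replicate 2. Rela, the main activating subunit of NF-kB, averaged 11.99 ± 0.08 in High and 12.03 ± 0.07 in Low lines (SD, n = 5 each).

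Inhibitors of the pathway included genes past the unadjusted threshold in both directions. All 16 were tested, 9 being positive and 7 negative, and their median was 0.05. An unadjusted p under 0.05 in limma was reached by 1 gene with a higher mean in High lines and by 3 with a lower one, beside 3.16% and 4.79% of all tested genes, and 0 passed the adjustment. Tnfaip3, which encodes A20, a ubiquitin-editing enzyme that shuts off NF-kB signalling, measured 8.44, 8.61, 8.64, 8.76 and 9.10 in High lines, against 9.27, 8.77, 8.95, 9.31 and 9.18 in Low lines. High replicate 5 lay within the Low range and the other High lines below it, for a difference of -0.39 (95% confidence interval -0.67 to -0.10, limma adjusted p = 0.472). Cyld, which removes ubiquitin chains, differed by -0.18 and Dusp1, a phosphatase of MAP kinases, by -0.27 (limma adjusted p = 0.608 and 0.574). Nfkbie, an inhibitor of NF-kB that is itself an NF-kB target, differed by 0.45 (limma adjusted p = 0.527). Nfkbia, which encodes the main inhibitor IkB alpha, differed by -0.01, Tollip, which holds IRAK1 inactive, by -0.06, and Sigirr by 0.05.

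NF-kB target genes gave no adjusted call. Of 27 listed, 22 were tested, 15 being positive and 7 negative, and their median was 0.06, where all tested genes had 58.0% positive. An unadjusted p under 0.05 was reached by 1 gene, beside 7.95% of all tested genes, and 0 passed the adjustment. That gene was Ptgs2, which encodes the prostaglandin enzyme COX-2 and measured 11.50, 11.88, 11.44, 11.83 and 12.05 in High lines, against 12.19, 12.26, 11.70, 12.53 and 12.28 in Low lines. The High lines lay below 4 of the Low lines, with Low replicate 3 inside their range, and the difference was -0.45 (limma adjusted p = 0.472). The monocyte chemokine genes Ccl2 and Ccl7 differed by 0.18 and 0.13, and the neutrophil chemokine genes Cxcl1 and Cxcl5 by 0.26 and 0.08. Vcam1 and Icam1, adhesion molecule genes, differed by 0.12 and 0.04, and Saa3, an acute phase gene, by -0.02. The limma adjusted p of these 7 genes ran from 0.763 to 0.949. Il6 lay below the filter and was not tested, with values from 5.58 to 6.73 in High and from 5.07 to 7.08 in Low lines.

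Lcn2, which encodes the iron-trapping protein lipocalin-2 and is a sensitive NF-kB target, varied most between clones among the named targets. It measured 10.38, 8.59, 9.27, 10.25 and 8.22 in High lines, against 7.55, 10.80, 9.38, 7.63 and 8.33 in Low lines. The highest and the lowest values were both in Low lines. Its difference of 0.60 was smaller than the SD of either class (95% confidence interval -0.73 to 1.94, limma adjusted p = 0.82).

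**Figure D5:**
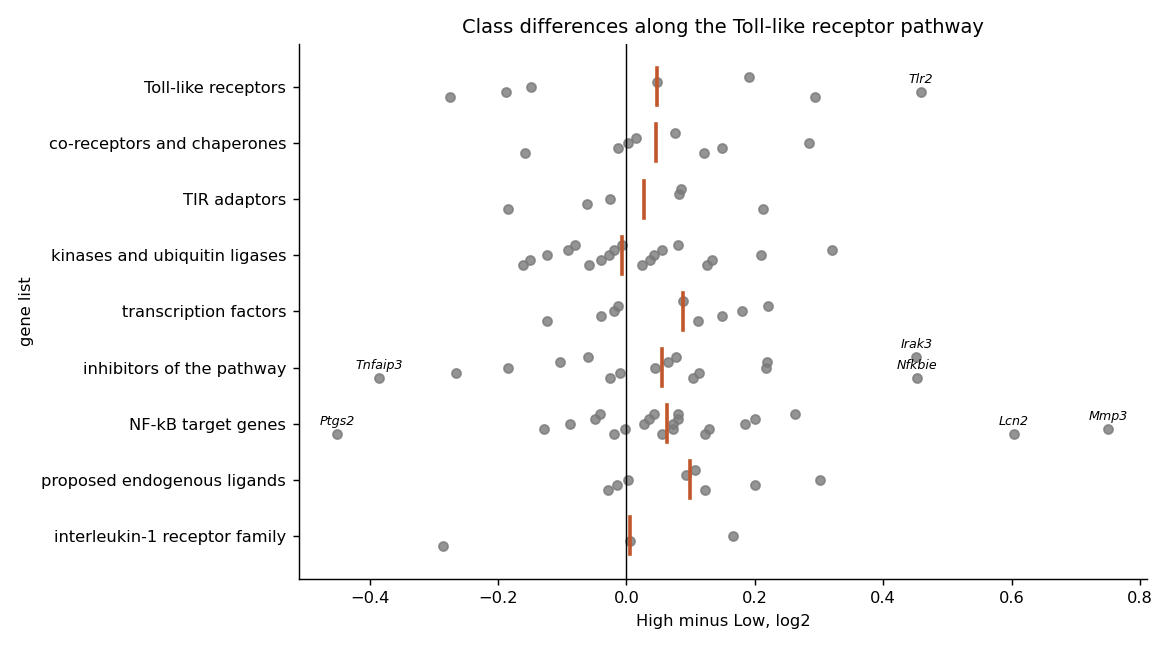
High minus Low differences on the log2 scale (horizontal axis) of the tested genes in 9 lists along the Toll-like receptor pathway, 1 grey point per gene, with the median of each list as a rust red bar. Medians lie between -0.01 and 0.10, and genes differing by more than 0.35 are named. The Toll-like receptor list, with a median of 0.05, includes Tlr2, which was picked for its difference. The other tested receptors in it differed by -0.27, -0.19, -0.15, 0.05, 0.19 and 0.29.

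Proposed ligands from the cells themselves and receptors of the interleukin-1 family, which share the TIR domain, completed the comparison. Of 9 ligand genes 8 were tested, with a median difference of 0.10 that was 0.03 without Low replicate 3. S100a9, a calcium-binding alarmin gene, differed by 0.20 (limma adjusted p = 0.558). It was the 1 member past an unadjusted p of 0.05, beside 7.95% of all tested genes. S100a9 was dim, above the 25th percentile in 8 of the 10 arrays. Low replicates 1 and 5, at 6.34 and 6.33, lay below that percentile, which ran from 6.38 to 6.47 over the arrays. The matrix proteoglycan genes Bgn and Dcn differed by -0.03 and 0.30, the nuclear protein gene Hmgb1 by 0.09 and the matrix gene Tnc by 0.12. Of 6 interleukin-1 receptor genes 3 were tested, with a median of 0.01 that was 0.21 with the clone digit as a block and -0.10 without High replicate 2, and Il1rap, the shared co-receptor gene, differed by 0.01 (limma adjusted p = 0.993). The panel of 32 genes to be named from these lists had 26 tested, 1 below the filter and 5 not analysed here, and 0 passed in limma.

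Markers of the labelled cell type and of immune cells were set beside the receptor values, since macrophages carry the same receptors. Of 10 fibroblast and preadipocyte markers, 9 were measured and all 9 passed the filter, among them Pdgfra, Thy1, Dlk1 and the collagen genes. Of 15 macrophage and leukocyte markers, 12 passed, and the defining genes Ptprc, Adgre1 and Itgam lay below the filter. The mean over these 15 markers ran from 7.08 to 7.33 in High and from 7.05 to 7.09 in Low lines. Differences were positive for 11 of the 12 tested markers, beside 58.0% of all tested genes. Cd53 differed by 0.75 and Fcer1g by 0.19 (limma adjusted p = 0.417 and 0.42). Csf1r, the receptor gene of a macrophage growth factor, went the other way at -0.16 (limma adjusted p = 0.574). Every High line lay below every Low line for Csf1r and above every Low line for Fcer1g. Classes did not overlap for 1.57% of all tested genes. High replicate 1 had the highest marker mean, 7.33, and the highest Tlr2 value. High replicates 2, 3 and 4 also had marker means above every Low line. For High replicate 3 this was narrow, at 7.096 against 7.088 in Low replicate 3. Cd53, 1 of the 15 markers, measured 9.01 in High replicate 3 and 8.32 in Low replicate 3, and a mean without it was not computed. High replicate 5 had a marker mean of 7.08, inside the Low range, and a Tlr2 value of 9.77, above every Low line. The part of these markers in the Tlr2 values was not tested. Of 8 endothelial markers, 7 were tested and all 7 differences were positive, beside 58.0% of all tested genes, with Vwf at 0.16 (limma adjusted p = 0.534). Tek at 0.0159 and Cdh5 at 0.0221 were smaller in size than the shift of -0.0318 by centring on array medians. Of 10 mature adipocyte markers, 6 were tested and all 6 were positive too, beside 58.0% of all tested genes. Fabp4 differed by 1.22 (limma adjusted p = 0.298). Adipoq, Lep and Cd36 lay below the filter and were not tested, with differences of -0.11, 0.12 and 1.12. Of the 6, Retn at 0.0247 was also smaller in size than that shift. Among the fibroblast markers, Pdgfra differed by 0.33 and Thy1 by 0.34. Both had an unadjusted p under 0.05 in limma, as had 7.95% of all tested genes, and neither passed the adjustment. In bulk RNA, fewer cells with a transcript and less of it per cell cannot be told apart.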

How the data were processed

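The authors deposited 1 table of log2 intensities for 10 arrays, made with RMA per the submitters' processing notes. No source used here gives RMA settings, its version or array batches. RMA makes the arrays' distributions alike, so a shift shared by most genes would be lost.

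Of 34760 probe sets, 21640 carried 1 gene symbol in the platform annotation, 1321 several, and 11799 were unnamed here. The brightest probe set by mean over 10 arrays stood for each of 19937 genes. A gene was tested when above its array's 25th percentile in at least 5 arrays. The class comparison used limma 3.58.1 in R 4.3.3 (lmFit, eBayes, two-sided), adjusted over 16339 genes by Benjamini and Hochberg with a threshold of 0.05. Correlations used 100000 permutations, or all permutations for 8 lines and within classes. Promoters come from RefSeq (GRCm38.p6). Gene order on chromosomes comes from the RefSeq table of that assembly, and none of its coordinates is used for arrays. Python 3.11.15 was used for tables. The fit was tested on simulated data.

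The members, gene lists and panel were chosen with earlier results of these data known. The text names the 8 genes, a fixed panel of 32 pathway genes, list members at an unadjusted p under 0.05 where a list held 5 or fewer, and the genes most and least like Tlr2. Some others were named after their values were seen: Tlr7, Tlr8, Tlr9, Tlr12, Tlr13, Il18rap and, among the co-receptors, Cd36. Cell type markers came from lists chosen in the same way as the pathway lists.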

Additional observations from a re-analysis of the deposited data

Results flagged for a closer look

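Of 68 sets of 5 values examined, over the 8 genes and the tested panel genes in each class, 3 had 1 line far from the rest of its class. Chance flags about 1 set in 20, or 3.4 sets here. Tlr6 in Low replicate 4 measured 7.22, against 7.63 to 7.72 in the other Low lines. Icam1 in Low replicate 3 measured 7.78, against 7.54 to 7.60 in the other Low lines. Bgn in Low replicate 4 measured 13.91, against 13.84 to 13.85 in the other Low lines.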

How the results depend on the processing

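No paired analysis was possible because the labels give clone names and no replicate numbers, and do not say whether the leading clone digit, fitted as a block below, marks anything shared. The number of genes past the adjusted threshold was 1. It was 2 after centring on array medians, after centring on the medians of tested genes (added after the data were seen) and with an intensity trend in the variance, 3 with array weights and 0 with the clone digit as a block. With 1 line left out it ran from 1 to 19, with 19 without High replicate 5 and 2 without Low replicate 3 or Low replicate 5. Of the 7 genes other than Tlr2, 0 passed in any alternative run, and their smallest limma adjusted p was 0.361, for Tlr4. The Tlr2 difference ran from 0.42 to 0.52 with 1 line left out and was 0.29 with the digit block. Some signs turned. With the digit block, Tlr6 was 0.13. Class differences with that block rest on High replicates 2 and 3 and Low replicates 4 and 5 alone. Low replicate 4 is the line flagged above for Tlr6. Myd88 ran from -0.0565 to 0.0181 with 1 line left out, turning without High replicate 2 or Low replicate 2. Ly96 was -0.0171 after centring on array medians, -0.0129 with neighbouring genes subtracted, and ran from -0.0673 to 0.096 with 1 line left out. With the digit block the list medians were -0.0083 for inhibitors, -0.0067 for proposed ligands, -0.0691 for TIR adaptors and 0.213 for interleukin-1 receptors. With 1 line left out they ran from -0.027 to 0.035 for kinases (highest without High replicate 4), from -0.0203 to 0.115 for transcription factors (lowest without High replicate 5) and from 0.0274 to 0.131 for ligands (lowest without Low replicate 3). The medians of TIR adaptors and interleukin-1 receptors also changed sign with 1 line left out (lowest -0.021 and -0.0953) and after centring on array medians (-0.0038 and -0.0257), and that of TIR adaptors with the stricter filter (-0.0252). The kinase median was positive after centring on tested genes, with quantile normalization repeated and with array weights (0.0154 to 0.0176). The median of the Toll-like receptor list, which includes Tlr2, was -0.0011 without High replicate 4. Tlr1 and Cd14 had r at 0.73 without 2 lines and 0.88 for deviations from the class means, neither past the adjusted threshold. The causes were not tested. Under the stricter filter Tlr6 was not tested, so it has no value there.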

Other observations

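Il18rap, an accessory chain gene of the interleukin-18 receptor, was looked at after its values were seen. It measured 7.63, 7.37, 7.79, 7.85 and 8.84 in High lines, against 8.70, 7.83, 8.04, 7.18 and 9.16 in Low lines. Low replicate 5 was the highest and Low replicate 4 the lowest line, as for Tlr1, Tlr4 and Cd14. Its class difference was -0.29 (limma adjusted p = 0.845).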
